A study of Mus musculus with 12 samples.

Results

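The transcripts described here are the genes of cholesterol synthesis and its control by SREBP2, measured by RNA sequencing in eyelids of mice fed either of 2 diets, low or high in fat. They were chosen by name: 29 of the 21936 genes in the table, among them 5 enzymes of the mevalonate pathway, 3 of the isoprenoid steps, 3 that lead from squalene to lanosterol, 9 that lead from lanosterol to cholesterol, 6 genes of SREBP2 control and 3 of sterol transport. All 29 exceeded 1 FPKM (reads per kilobase of exon, scaled for sequencing depth) in at least 2 libraries and so were among the 13228 genes tested. The animals were male C57BL/6 mice, 6 to 8 weeks old at the start, housed with 12 h of light and 12 h of dark after 1 week of adaptation. Controls (CTL) ate a diet with 10 kcal% fat and high-fat mice (HF) one with 60 kcal% fat. Both diets were sampled at 9h, 15h and 21h, with 2 libraries for each diet and time and 12 in all. The sample labels give 3 months of diet and the series text 4 months. The labels call the tissue meibomian gland, the series text takes in the entire upper and lower eyelids, and neither says when the lights came on or how many mice went into a library. P-values therefore measure the spread between these libraries.

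Cells build cholesterol from acetyl-CoA by way of mevalonate, the isoprenoid diphosphates, squalene and lanosterol. SREBP2, the product of Srebf2, is a membrane-bound transcription factor that SCAP carries from the endoplasmic reticulum to the Golgi when sterols are scarce, where the proteases encoded by Mbtps1 and Mbtps2 release its active part to switch on the enzyme genes. INSIG proteins hold SCAP back when sterols are plentiful. In the meibomian gland, which secretes the lipid layer of the tear film, cholesterol is largely turned into cholesteryl esters of meibum.

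Recovered depth was 14096363 to 17889159 reads per library. The gland itself was well represented: all 20 meibocyte and sebocyte markers were detected, with a summed level of 9120 to 12839 FPKM in CTL and 9790 to 15137 FPKM in HF libraries. The keratinocyte markers summed to 3279 to 4700 FPKM and the skeletal muscle markers to 2362 to 6249 FPKM, so the tissue held other cell types too.

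The promoters of some genes that the results turn on are shown because the enzymes are classical joint targets of SREBP2 and its partner NF-Y. RefSeq windows on GRCm38.p6 were found for 24 of the 29 members, in 30 windows, each of 250 bases before and 50 after a start site. Printed are the 250 bases before the start, 5′ to 3′ on the gene's strand, with CCAAT (the NF-Y box, or ATTGG where it lies on the other strand) and TCACNCCAC (a sterol element) in capitals: Hmgcs1 at chr13:119690101-119690350 on the plus strand, Mvk at chr5:114444019-114444268 on the plus strand, Pmvk at chr3:89454291-89454540 on the plus strand, Hsd17b7 at chr1:169969206-169969455 on the minus strand and Insig1 at chr5:28071162-28071411 on the plus strand.
Hmgcs1: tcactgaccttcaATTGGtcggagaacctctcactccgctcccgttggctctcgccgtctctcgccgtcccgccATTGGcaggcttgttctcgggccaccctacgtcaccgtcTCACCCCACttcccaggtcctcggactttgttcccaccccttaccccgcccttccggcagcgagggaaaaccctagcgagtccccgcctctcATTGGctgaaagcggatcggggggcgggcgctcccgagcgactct
Mvk: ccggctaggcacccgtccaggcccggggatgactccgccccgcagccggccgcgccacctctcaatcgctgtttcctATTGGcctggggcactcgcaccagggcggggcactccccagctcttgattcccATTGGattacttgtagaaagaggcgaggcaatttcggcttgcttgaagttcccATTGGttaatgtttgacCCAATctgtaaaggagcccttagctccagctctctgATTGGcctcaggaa
Pmvk: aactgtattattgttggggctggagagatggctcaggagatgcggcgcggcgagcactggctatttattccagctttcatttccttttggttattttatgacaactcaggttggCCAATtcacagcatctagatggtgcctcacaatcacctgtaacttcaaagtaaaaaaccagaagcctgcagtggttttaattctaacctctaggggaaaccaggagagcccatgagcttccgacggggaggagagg
Hsd17b7: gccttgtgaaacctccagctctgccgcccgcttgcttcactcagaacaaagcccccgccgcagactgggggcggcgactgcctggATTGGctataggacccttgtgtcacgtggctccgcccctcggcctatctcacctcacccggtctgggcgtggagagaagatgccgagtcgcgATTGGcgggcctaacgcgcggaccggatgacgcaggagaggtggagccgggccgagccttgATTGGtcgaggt
Insig1: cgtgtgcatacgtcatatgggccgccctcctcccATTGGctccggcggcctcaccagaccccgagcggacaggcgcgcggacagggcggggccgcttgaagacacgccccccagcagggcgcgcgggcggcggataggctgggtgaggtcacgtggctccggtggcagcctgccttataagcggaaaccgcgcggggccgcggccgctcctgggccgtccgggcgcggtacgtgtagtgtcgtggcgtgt
CCAAT was present on either strand in 20 of the 24 genes and in 66.7% of their windows, against 37.41% of all 32851 windows. GGGCGG, an Sp1 box, was in 21 of the 24 genes and 80.0% of their windows, against 35.66% of all windows. Member windows had a median GC content of 61.8%, against 52.7% over all windows, and the part of base composition in the motif shares was not tested. TCACNCCAC was found in 1 of the 24 genes, Hmgcs1, 137 bases before the start, against 1.44% of all genes with a window. Mvk held CCAAT 5 times, Hsd17b7 3 times and Pmvk 1 time in the first of its 2 windows. Acat2, whose promoter is not printed, held neither CCAAT nor TCACNCCAC in its window. A match describes these letters only. The matches in capitals share no base with each other. The 50 bases after the start, which were also searched, held 1 more ATTGG in Hmgcs1.

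Msmo1, a sterol demethylating oxidase, was the most abundant member at 335 FPKM over the 12 libraries (range 266.3 to 422.8), followed by Hmgcs1, the cytosolic HMG-CoA synthase, at 303.7 FPKM (226.7 to 371.6). Stard4, a cytosolic sterol carrier, averaged 213.7 FPKM (145.7 to 260.3) and Cyp51, the lanosterol demethylase, 145.7 FPKM (118.4 to 180.2). The ranges of Msmo1 and Hmgcs1 overlapped, as did those of Stard4 and Cyp51. Among the control genes, Insig1 averaged 89.9 FPKM, Insig2 84.1, Srebf2 35.4, Scap 18.8, Mbtps1 12.6 and Mbtps2 2.79 FPKM. Fdps, the farnesyl diphosphate synthase, was lowest at 1.93 FPKM (1.15 to 2.49). Its level is uncertain, because its transcript matches 6 other genes, 5 of them pseudogenes, at up to 100% identity, and the counting of shared reads is not given in the sources used here.

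Averaged over the 3 times, Pmvk, the phosphomevalonate kinase, was the 1 member whose mRNA rose on the high-fat diet by the test, and most of the other enzymes of the early pathway had positive differences of a smaller size. By limma with Benjamini-Hochberg adjustment, 1 of 29 members passed an adjusted p of 0.05, where 1.98% of all genes tested passed. When 1 library was left out, whether Pmvk passed depended on the library, as given below. The log2 difference of FPKM + 1, HF minus CTL, was positive in 25 of 29 members, against 48.0% of all genes, with a median of 0.12, against -0.01 over all genes. In bulk tissue, more cells of a type and more RNA per cell cannot be told apart. At an unadjusted p under 0.05 there were 10 members with a positive and 1 with a negative difference, where 14.1% of all genes passed that cut in either direction. The mevalonate enzymes had a median difference of 0.29, the squalene to lanosterol enzymes 0.29, the lanosterol to cholesterol enzymes 0.10, SREBP2 control 0.08, sterol transport 0.08 and the isoprenoid steps 0.07.

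Pmvk (ENSMUSG00000027952, chr3:89454541-89469013) measured 96.7 and 94.5 FPKM in CTL libraries at 9h, 95.2 and 98.7 at 15h and 130.1 and 108.6 at 21h. In HF libraries it measured 126.4 and 157.2 FPKM at 9h, 126.7 and 213.2 at 15h and 207.8 and 177.4 at 21h. Both HF libraries lay above both CTL libraries at each time, and of the 6 HF libraries only those at 126.4 and 126.7 FPKM lay below the highest CTL library. The means were 103.9 ± 13.8 FPKM in CTL and 168.1 ± 38.1 FPKM in HF (SD, n = 6 each), a ratio of 1.62. The log2 difference was 0.67 ± 0.13 (SE; 95% CI 0.38 to 0.95; limma adjusted p = 0.0322). The size of the difference was 0.54 to 0.79 when any 1 library was left out, but the call depended on the libraries: it was lost without any 1 of the 6 CTL libraries, of HF_9h replicate 7, or of HF_21h replicate 3 or 6, with limma adjusted p of 0.0591 to 0.110, and kept without HF_9h replicate 6 or either HF_15h library. It was also lost with no filter on low values (adjusted p = 0.0616).

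Mvk, the mevalonate kinase one step earlier (ENSMUSG00000041939, chr5:114444269-114460591), measured 22.9 and 25.8 FPKM at 9h, 22.7 and 20.3 at 15h and 24.8 and 23.2 at 21h in CTL libraries. In HF libraries it measured 28.5 and 32.1, 24.8 and 30.2, and 35.8 and 29.6 FPKM at the same times. HF lay above CTL at every time, and the log2 difference was 0.36 ± 0.08 (limma adjusted p = 0.0579). This value passed the threshold with quantile normalization, in the additive model of diet and time, and without HF_15h replicate 2 (adjusted p of 0.0438, 0.0228 and 0.0424).

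Hmgcs1 (ENSMUSG00000093930, chr13:119690379-119708260) measured 226.7 and 241.3 FPKM at 9h, 311.5 and 304.0 at 15h and 265.4 and 322.2 at 21h in CTL libraries. In HF libraries it measured 265.3 and 288.6, 336.7 and 368.6, and 371.6 and 341.9 FPKM. Within each time HF lay above CTL, though the HF libraries at 9h lay below both CTL libraries at 15h. The log2 difference for diet was 0.24 ± 0.07 (limma adjusted p = 0.169). Acat2, the cytosolic thiolase that starts the pathway (ENSMUSG00000023832, chr17:12942890-12960747), measured 99.2 and 106.7, 127.6 and 125.2, and 108.3 and 136.5 FPKM in CTL and 117.8 and 127.0, 141.9 and 161.8, and 163.5 and 151.2 FPKM in HF libraries at 9h, 15h and 21h. HF was again above CTL at each time, with a log2 difference of 0.29 ± 0.07 (limma adjusted p = 0.1003). The value of Acat2 is uncertain because another gene in the table matches 65.6% of its transcript at 97.7% identity. Mvd, the decarboxylase that closes this part of the pathway, ranged from 66.7 to 105.0 FPKM and had a log2 difference of 0.17.

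**Figure D1:**
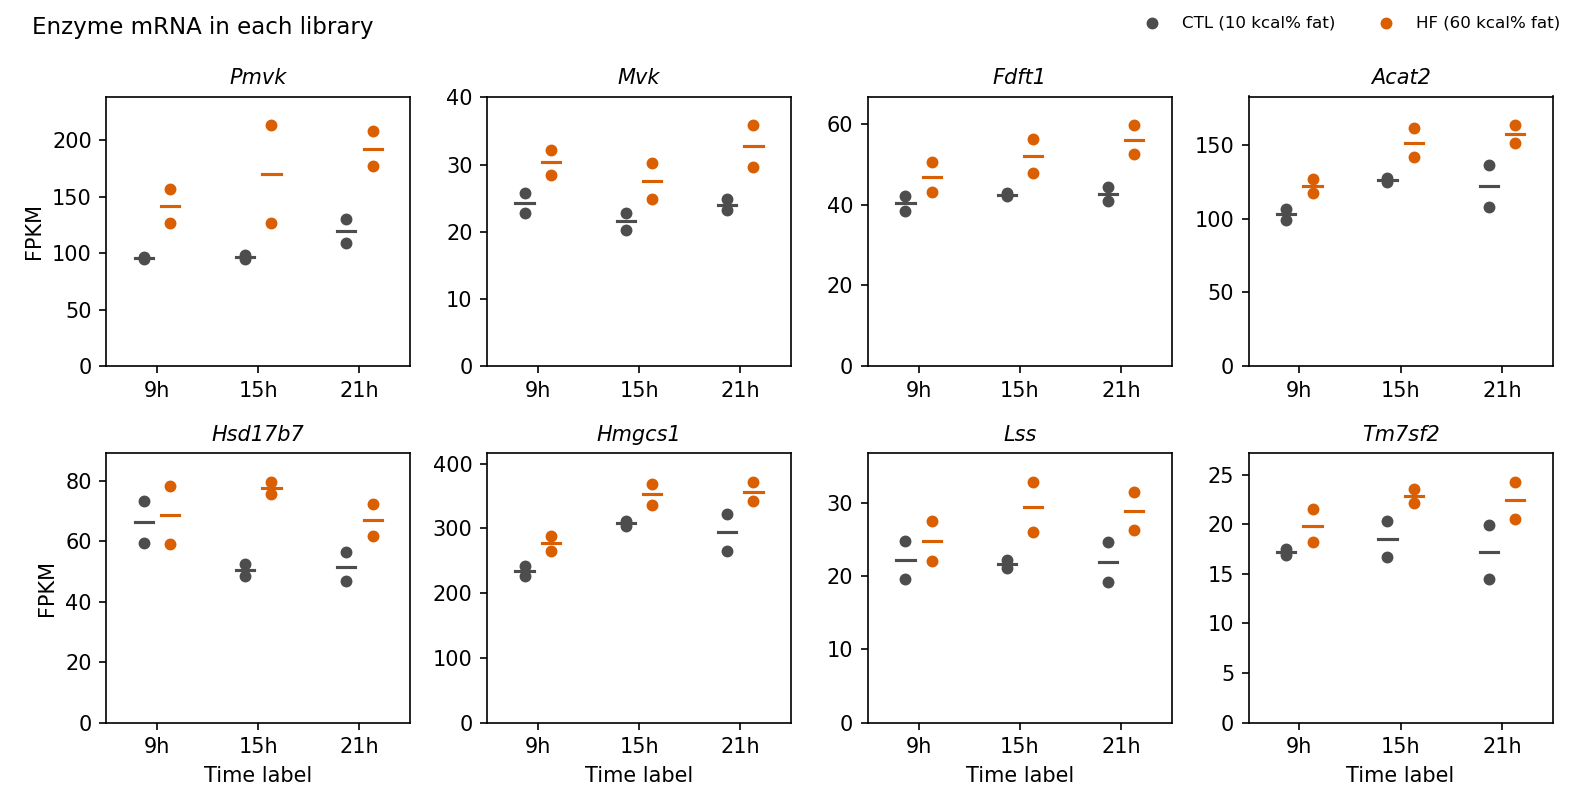
Level in FPKM of 8 enzymes in each of the 12 libraries, by time label, with CTL in grey and HF in orange; points are libraries and short lines are means of 2. HF libraries lay above CTL libraries at all 3 times for Pmvk, Mvk, Fdft1, Acat2, Hmgcs1 and Tm7sf2, while Hsd17b7 and Lss overlapped at 9h.

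Of the isoprenoid enzymes, Idi1, the isopentenyl diphosphate isomerase, had a log2 difference of 0.33 ± 0.12 (limma adjusted p = 0.259), named here after its values were seen because 1 library set it apart: HF_15h replicate 6 stood at 116.8 FPKM, and the other 11 libraries ranged from 48.0 to 73.7 FPKM. Without that library the Idi1 difference was 0.21, and without HF_15h replicate 2 it was 0.46 (limma adjusted p = 0.0168). Fdps and Ggps1, which extend the isoprenoid chain, had differences of 0.07 and -0.04.

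Fdft1, the squalene synthase and first committed step to sterols (ENSMUSG00000021273, chr14:63145150-63179578), measured 38.5 and 42.2 FPKM at 9h, 42.2 and 42.9 at 15h and 40.9 and 44.3 at 21h in CTL libraries, and 43.2 and 50.6, 47.9 and 56.3, and 59.7 and 52.6 FPKM in HF libraries. CTL libraries stayed within a narrow band and HF libraries lay above them at each time, with a log2 difference of 0.29 ± 0.07 (limma adjusted p = 0.0803). It passed with quantile normalization (adjusted p = 0.0349) and in the additive model (0.0423). The exons of Fdft1 overlap those of Ctsb, on the opposite strand, over 18.3% of their length, and reads of the pair cannot be told apart without strand. Lss, the lanosterol synthase (ENSMUSG00000033105, chr10:76531588-76557138), measured 19.6 and 24.8, 22.2 and 21.0, and 19.2 and 24.6 FPKM in CTL and 22.02 and 27.5, 26.1 and 32.8, and 26.3 and 31.5 FPKM in HF libraries. The diets overlapped at 9h and were apart at 15h and 21h, and the difference was 0.32 ± 0.10 (limma adjusted p = 0.201). Sqle, the squalene epoxidase, had a difference of 0.12 ± 0.07.

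Among the 9 enzymes after lanosterol, 8 had a positive difference and none passed the test. Hsd17b7, a sterol ketone reductase (ENSMUSG00000026675, chr1:169949535-169969241), measured 59.3 and 73.3 FPKM at 9h, 52.4 and 48.5 at 15h and 46.7 and 56.4 at 21h in CTL libraries. In HF libraries it measured 58.9 and 78.0, 75.6 and 79.5, and 61.7 and 72.2 FPKM. The diets overlapped at 9h and were apart later, and the averaged difference was 0.34 ± 0.09 (limma adjusted p = 0.135). Tm7sf2, a sterol reductase (ENSMUSG00000024799, chr19:6062821-6068373), measured 16.9 and 17.5, 20.4 and 16.7, and 14.5 and 19.98 FPKM in CTL and 18.3 and 21.5, 23.6 and 22.2, and 24.3 and 20.6 FPKM in HF libraries. HF lay above CTL at every time, with a difference of 0.29 ± 0.09 (limma adjusted p = 0.202), and 12.1% of its exon length is shared with Vps51. Msmo1, also named after its values were seen, was above at every time with a difference of 0.24 ± 0.09. Cyp51 had a difference of 0.19, Lbr 0.10, Ebp 0.08, Nsdhl 0.06, Dhcr7 0.0005 and Sc5d, the lathosterol oxidase, -0.12.

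**Figure D2:**
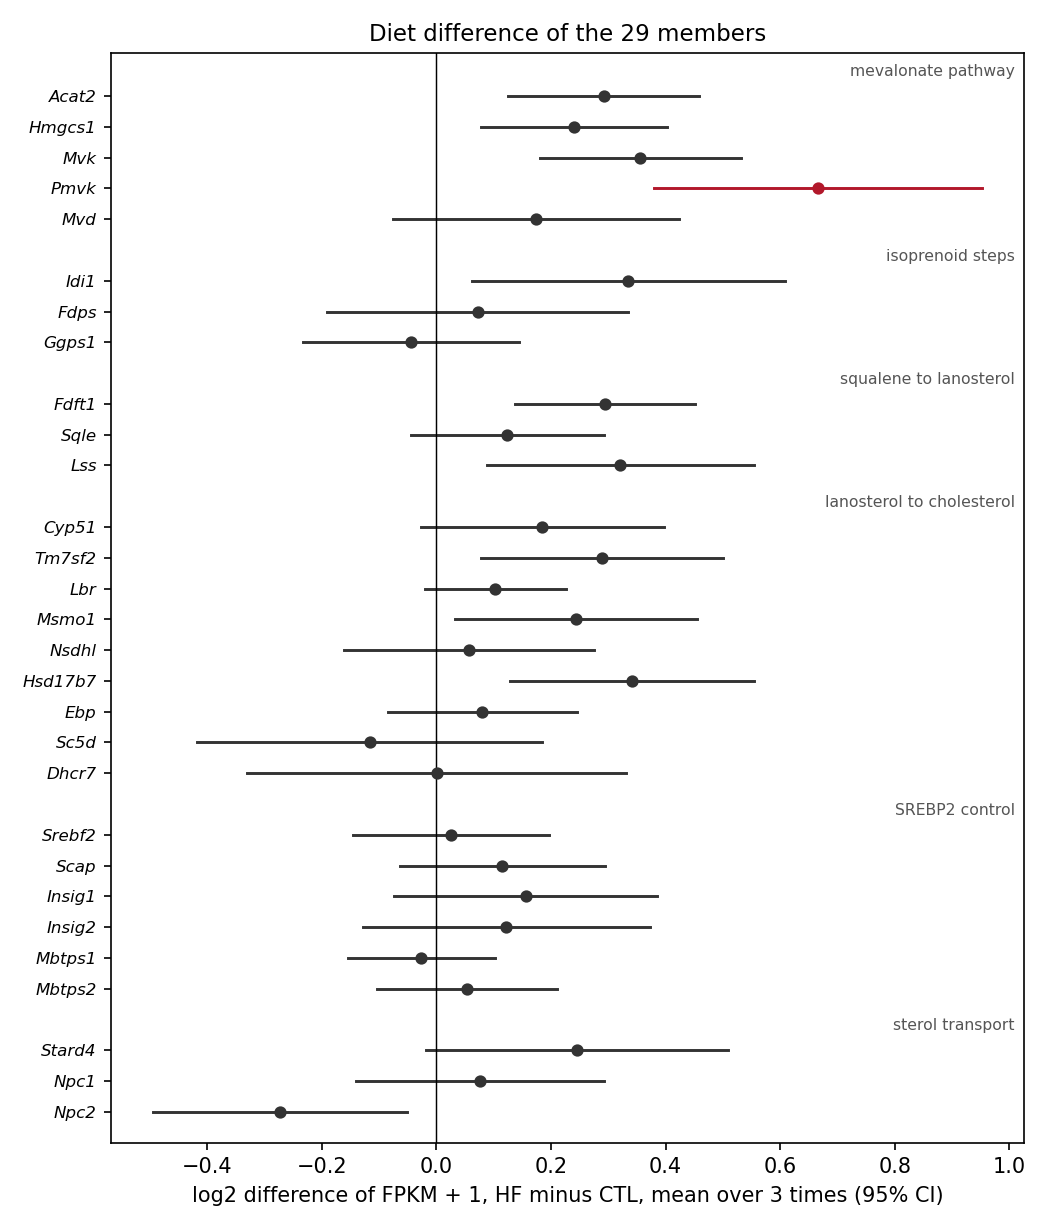
Log2 difference of FPKM + 1, HF minus CTL averaged over the 3 times, for each of the 29 members by role, with 95% confidence intervals from limma. Pmvk, in red, is the member with an adjusted p under 0.05, and 4 members lie below 0.

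Both HF libraries lay above both CTL libraries at all 3 times in 7 of 29 members (Acat2, Hmgcs1, Mvk, Pmvk, Fdft1, Tm7sf2 and Msmo1), where 1.6% of all genes tested did so. The reverse order at all 3 times was seen in 0 members and in 3.54% of all genes. At 9h alone the HF libraries were above in 9 members (15% of all genes) and below in 1 (14.8%). At 15h they were above in 18 members (19%) and below in 1 (26.7%), and at 21h above in 16 (15.6%) and below in 3 (22.2%).

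The genes that control SREBP2 did not pass the test for diet. Srebf2 (ENSMUSG00000022463, chr15:82147181-82205379) measured 38.6 and 41.8 FPKM at 9h, 34.9 and 32.5 at 15h and 28.99 and 33.7 at 21h in CTL, and 32.2 and 40.6, 35.1 and 40.1, and 31.8 and 34.0 FPKM in HF libraries. The diets overlapped at 9h and 21h, and the averaged log2 difference was 0.03 ± 0.08 (95% CI -0.15 to 0.20; limma adjusted p = 0.919). Scap, the sterol sensor, measured 18.0 and 20.7, 17.1 and 15.8, and 17.7 and 18.4 FPKM in CTL and 18.5 and 21.1, 17.3 and 23.1, and 18.7 and 18.7 FPKM in HF libraries, with a difference of 0.12 ± 0.08 (95% CI -0.06 to 0.29). HF libraries of Scap lay above CTL at 15h and 21h and overlapped with CTL at 9h. Mbtps1 and Mbtps2 had differences of -0.03 and 0.05, and 28.4% of the exon length of Mbtps2 is shared with Yy2.

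Insig1, both a brake on SREBP2 and a known target of it (ENSMUSG00000045294, chr5:28071363-28078662), had opposite orders at 9h and 15h. It measured 99.4 and 95.7 FPKM in CTL against 75.9 and 85.1 in HF libraries at 9h, 77.4 and 74.9 against 118.0 and 105.3 at 15h, and 63.8 and 100 against 91.7 and 92.0 at 21h. HF was below CTL at 9h, above at 15h and between the CTL libraries at 21h. The log2 difference was -0.28 ± 0.18 at 9h, 0.54 ± 0.18 at 15h and 0.20 ± 0.18 at 21h. The interaction of diet and time had an unadjusted p of 0.0276 and a limma adjusted p of 0.999, so it did not pass over all genes. Insig2 (ENSMUSG00000003721, chr1:121304353-121332589) measured 80.7 and 94.1, 89.5 and 82.1, and 57.2 and 80.2 FPKM in CTL and 72.9 and 101.5, 99.1 and 91.6, and 85.9 and 74.1 FPKM in HF libraries. The diets were apart at 15h only, and its averaged difference was 0.12 ± 0.11 (95% CI -0.13 to 0.37).

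**Figure D3:**
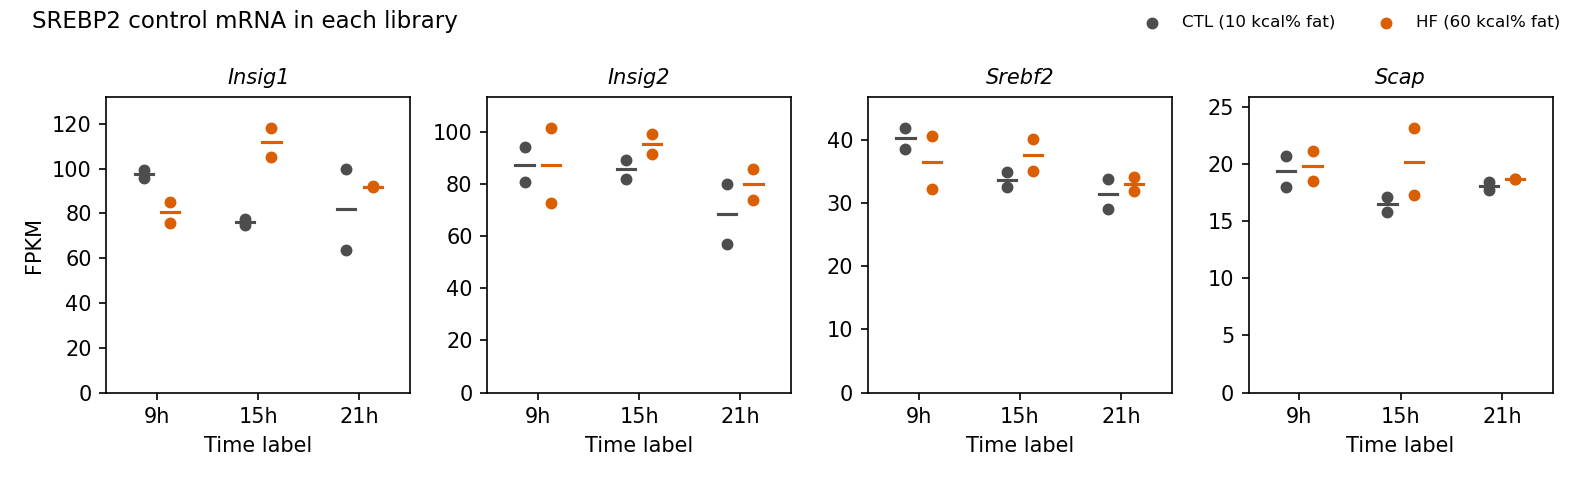
Level in FPKM of Insig1, Insig2, Srebf2 and Scap in each of the 12 libraries, by time label, with CTL in grey and HF in orange; points are libraries and short lines are means of 2. Insig1 was lower in HF at 9h (75.9 and 85.1 FPKM) and higher at 15h (118.0 and 105.3 FPKM).

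Npc2, the soluble cholesterol-binding protein of lysosomes, was the 1 member with a negative difference at an unadjusted p under 0.05, and it is named after its values were seen. It ranged from 27.9 to 39.2 FPKM in CTL (median 35.7) and from 22.9 to 32.0 FPKM in HF libraries (median 29.9). The diets overlapped at 9h, and both HF libraries lay below both CTL libraries at 15h and at 21h. Its log2 difference was -0.27 ± 0.10 (limma adjusted p = 0.256). Npc1, its membrane partner, had a difference of 0.08 and Stard4 one of 0.25 ± 0.12 (adjusted p = 0.391).

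At single times no member passed in the fit of all 12 libraries. At 9h limma called 0 of the 13228 genes (0%; 955 at an unadjusted p under 0.05, and 0 by limma-voom on recovered reads), and the members' median log2 difference was 0.0026, with 15 positive. It called 55 genes at 9h when the 4 libraries of that time were fitted alone, 155 without HF_9h replicate 7 and 25 without either HF_15h library, with 0 members each time. At 15h it called 8 genes (0.0605%) and 0 members, with a median of 0.19 and 26 members positive. Whether limma called Pmvk and Idi1 at 15h depended on the library left out. At 21h it called 1 gene (0.00756%) and 0 members, with a median of 0.23 and 24 positive. Over all genes the medians were 0.023, -0.035 and -0.014 at 9h, 15h and 21h, with 55.5%, 43.3% and 45.9% positive. The mevalonate enzymes had medians of 0.25, 0.26 and 0.37 at 9h, 15h and 21h, all 5 positive each time. The lanosterol to cholesterol enzymes had 0.01, 0.18 and 0.15, and SREBP2 control -0.03, 0.15 and 0.06. Hsd17b7 had the smallest p of the members at 15h, with a difference of 0.61 ± 0.16 (limma adjusted p = 0.223).

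Whether the diet difference depended on the time was tested by the interaction, for which limma called 0 genes (0%; 405 at an unadjusted p under 0.05, 0 by limma-voom). Of the members, Insig1 was the only one with an unadjusted p under 0.05, and Hsd17b7 followed (limma adjusted p = 0.999). The medians at 9h and 21h moved with single libraries, while that at 15h stayed between 0.17 and 0.26 when any 1 library was left out. Without HF_9h replicate 6 the median at 9h was 0.16 with 24 members positive, and without HF_9h replicate 7 it was -0.07. Without CTL_21h replicate 1 the median at 21h was 0.10 with 18 positive, and without CTL_21h replicate 2 it was 0.38. Without HF_15h replicate 2, which left 1 HF library at 15h, the differences at 15h were 1.13 for Pmvk and 1.0 for Idi1. Without HF_15h replicate 6 they were 0.38 and 0.24.

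**Figure D4:**
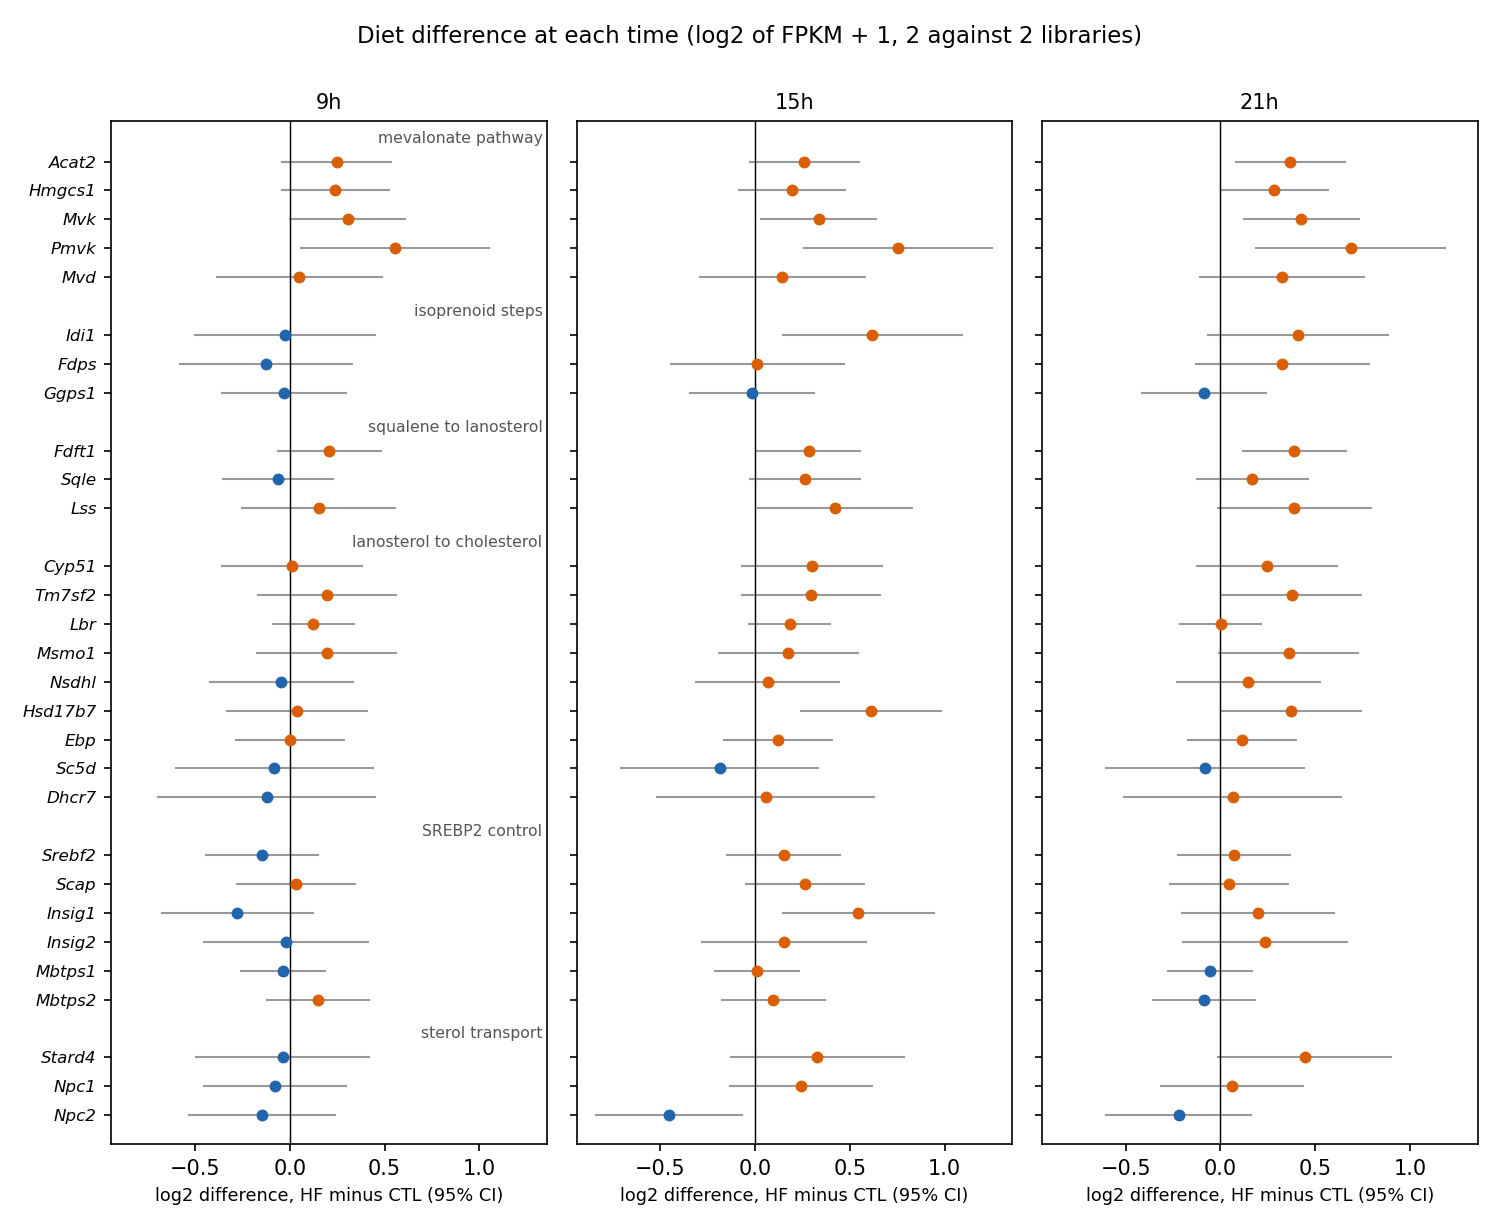
Log2 difference of FPKM + 1, HF minus CTL, at 9h, 15h and 21h for each of the 29 members by role, with 95% confidence intervals from limma; orange points are above 0 and blue points below. At 9h 15 members were above 0, at 15h 26 and at 21h 24, against 55.5%, 43.3% and 45.9% of all genes.

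Time of day was compared over the mean of both diets. With all 12 libraries no member passed the F test of time, which called 193 genes (1.46%). An unadjusted p under 0.05 was seen in 3 of 29 members, against 23.6% of all genes. Whether Sqle passed the F test depended on the library left out. The number of genes called by this test ranged from 1 (without HF_21h replicate 3) to 2509 (without HF_9h replicate 6) when 1 library was left out. Hmgcs1 had the smallest p (limma adjusted p = 0.0805), with 255.5 ± 27.2 FPKM at 9h, 330.2 ± 29.2 FPKM at 15h and, at the last time, 325.3 ± 44.8 FPKM (SD over 4 libraries). All 4 libraries at 9h lay below both CTL libraries and both HF libraries at 15h, and they overlapped with 21h. Acat2 followed with 112.7 ± 12.2, 139.2 ± 16.8 and 139.9 ± 23.8 FPKM (adjusted p = 0.118). Ebp, the sterol isomerase (ENSMUSG00000031168, chrX:8185329-8193512), measured 33.2, 30.8, 30.5 and 33.6 FPKM at 9h, 36.5, 36.3, 34.4 and 45.8 at 15h and 37.0, 37.8, 40.0 and 41.2 at 21h, CTL first (adjusted p = 0.157). Its 9h libraries were the 4 lowest of the 12.

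From 9h to 21h limma called 796 genes (6.02%) and 0 members. Hmgcs1 came nearest with a log2 difference of 0.34 ± 0.09 (adjusted p = 0.0525, and 0.0479 by limma-voom), and Srebf2 had -0.24 ± 0.09 (adjusted p = 0.129). Without HF_9h replicate 6 this comparison called 3375 genes, with Hmgcs1, Ggps1, Sqle and Srebf2 as the 4 members among them. Leaving out CTL_21h replicate 2 cut the count to 8 genes, leaving out HF_21h replicate 3 or CTL_9h replicate 2 to 6, and leaving out CTL_9h replicate 3 to 4, with 0 members each time. Without 1 of the other libraries except those at 15h on HF it called 121 to 241. The log2 difference of Ebp was 0.24 to 0.31 without any 1 library, and whether limma called Ebp depended on the library. From 9h to 15h it called 3 genes (0.0227%) and 0 members, and without HF_9h replicate 6 it called 2712 genes, with Hmgcs1 and Sqle as the 2 members among them. From 15h to 21h it called 0 genes (0%; 588 at an unadjusted p under 0.05, 0 by limma-voom). Within CTL the F test of time called 3 genes (0.0227%) and within HF 0 (0%; 1155 at an unadjusted p under 0.05, 0 by limma-voom), with 0 members in each. Both gene counts depended on the library left out. Skeletal muscle markers moved with time: 5 of 10 were called lower at 21h than at 9h, with a median log2 difference of -0.81, and their part in the time values was not tested.

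The meibocyte and sebocyte markers had diet differences of the same sign as most members. All 20 had a positive diet difference, with a median of 0.23, and 1 rose by the test: Soat1, which esterifies cholesterol, from 105.0 ± 11.4 to 141.4 ± 24.6 FPKM (log2 difference 0.42 ± 0.08, limma adjusted p = 0.0409). Their medians were 0.02, 0.37 and 0.32 at 9h, 15h and 21h, and their summed level had a median of 11159 FPKM in CTL and 13232 FPKM in HF libraries. Members and markers were also compared between the 2 libraries of each group. In CTL at 21h replicate 2 was above replicate 1 in 24 of 29 members and 18 of 20 markers, against 49.6% of all genes. In HF at 9h replicate 7 was above replicate 6 in 25 of 29 members and 19 of 20 markers, against 32.2% of all genes. The higher replicate number was above in 23 members and 16 markers in CTL at 9h, in 19 and 13 in HF at 15h and in 10 and 3 in HF at 21h. In CTL at 15h it was above in 11 members and in 0 markers, with medians of -0.03 and -0.13. Members were also set relative to the mean of the 20 markers in the same library, a comparison chosen after seeing the data. Their median diet difference was then -0.11 with 11 of 29 positive, against -0.24 over all genes. Pmvk had 0.43 ± 0.13 (limma adjusted p = 0.0782). The 20 markers themselves had positive diet differences, so these values are relative to those genes and not to a number of cells. T cell markers moved the other way: 6 of the 8 tested were called lower on the high-fat diet, and their summed level was 19.9 to 38.0 FPKM in CTL and 8.67 to 13.8 FPKM in HF libraries, without overlap. Of 9 macrophage markers 8 had a negative difference (median -0.52) and 0 were called, with a summed level of 804.3 to 1424 FPKM in CTL and 336.9 to 1095 FPKM in HF libraries. Of 7 adipocyte markers tested 6 had a positive difference (median 0.24) and 0 were called, with 52.0 to 85.8 FPKM in CTL and 61.9 to 88.7 FPKM in HF libraries. The part of these cell types in the members' values was not tested.

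**Figure D5:**
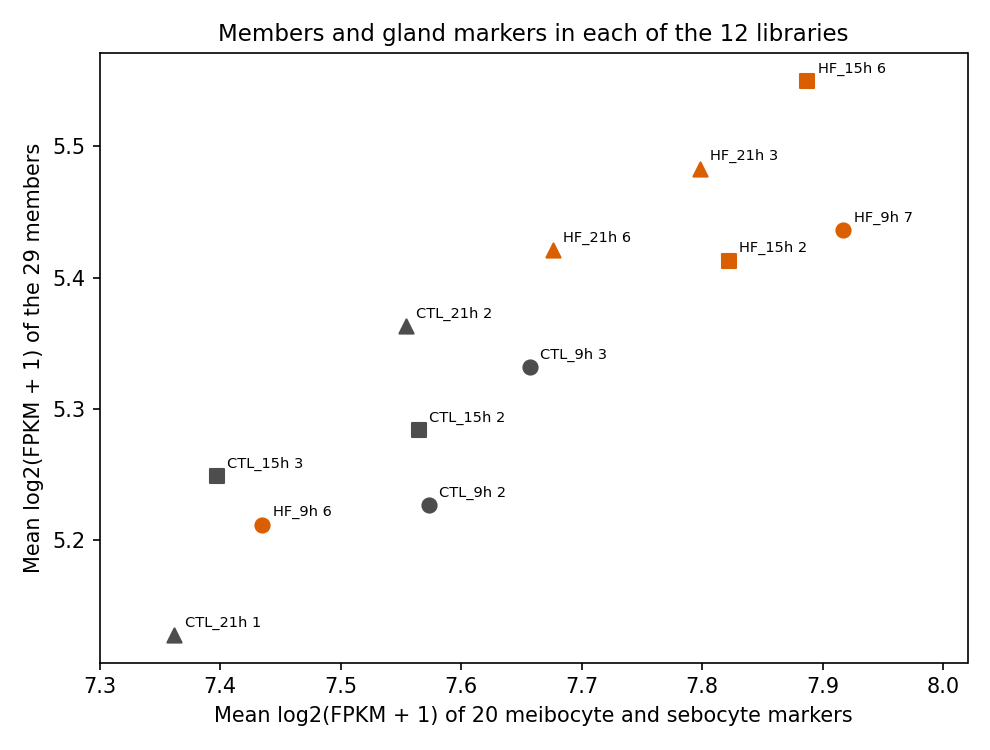
Mean log2(FPKM + 1) of the 29 members against that of the 20 meibocyte and sebocyte markers, with 1 point for each of the 12 libraries, HF in orange and CTL in grey, and the shape giving the time. CTL_21h replicate 1 is lowest on both axes, and HF_9h replicate 6 lies among the CTL libraries.

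Genes around the pathway were counted by list for the averaged diet comparison, and none was called, where 1.98% of all genes passed. Over all genes 48.0% had a positive difference, with a median of -0.01. Of 15 genes of the isoprenoid branches, 11 had a positive difference (median 0.05), and Rce1, which trims prenylated proteins, had the smallest p (0.23, limma adjusted p = 0.158). Of 9 electron donors and scaffolds of the sterol enzymes 8 were positive (median 0.09). Of 12 genes for turnover of sterol enzymes and INSIG 4 were positive (median -0.01). Of 16 SREBP partners and cargo genes 9 were positive (median 0.01): Sec24a, a coat protein of transport vesicles, had 0.24 (adjusted p = 0.102), the chaperone gene Hsp90b1 -0.30 (0.230) and Srebf1, which encodes the sister factor SREBP1, 0.17 (0.323). All 7 genes of cytosolic acetyl-CoA supply were positive (median 0.15), led by Acss2, an acetyl-CoA synthetase, with 0.22 (adjusted p = 0.303). Of 11 genes of fatty acid synthesis, the SREBP1 side, 8 were positive (median 0.19), with the acetyl-CoA carboxylases Acacb at 0.38 (adjusted p = 0.0879) and Acaca at 0.22 (0.262), Gpam, an acyltransferase of glycerolipid synthesis, at 0.31 (0.212) and Fasn, the fatty acid synthase, at 0.28 (0.297).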

How the data were processed

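The authors deposited 1 table of FPKM values for 12 libraries and 21936 genes. HISAT2 2.0.5, HTSeq 0.9.1, DESeq 1.30.0 and the build mm9 are named in the submitters' processing notes. How FPKM was made from counts, whether strand was used and which annotation served is not given in the sources used here. Gene IDs fit GENCODE M21 (mouse) on GRCm38 instead (21817 of 21936): with its merged exon lengths 98.1% of nonzero values were whole reads within 0.02 reads, which gave the depth and the reads for limma-voom. Gene coordinates are from that annotation.

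Values were tested as log2(FPKM + 1) by limma 3.58.1 in R 4.3.3 with a mean-dependent prior, on 13228 genes (over 1 FPKM in 2 or more libraries). The pseudocount understates changes of low genes. The model had 1 mean for each of 6 groups and 6 residual degrees of freedom, and p-values were adjusted by Benjamini-Hochberg over all genes tested. Members, marker lists and pathway lists were chosen with earlier results of these data known. Values in every library are given for members called in any test, the 8 with the smallest p for diet, 3 for time, 2 for the interaction, and Insig1, Insig2, Srebf2 and Scap. Outside the members, at most 4 genes of a list are named, those called and then those with the smallest p. Alternatives were a pseudocount of 0.1, no filter, quantile or median scaling, limma-voom, the replicate number as a block, an additive model, a fit of 1 time alone and leaving out each library. Some genes of the pathway are not reported here. Transcripts were compared with each other by sequence (at least 90% identity over at least 50% of the transcript) to find near-copies.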

Additional observations from a re-analysis of the deposited data

Results flagged for a closer look

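In 2 of 58 sets of 6 libraries (a member within a diet, over the 3 times) the highest library stood far from the others; about 1 set in 20 does so by chance. Idi1 stood at 116.8 FPKM in HF_15h replicate 6, where the next HF library had 73.7 FPKM. Npc1 stood at 6.86 FPKM in CTL_9h replicate 3, where the next CTL library had 5.27 FPKM. The diets had opposite orders at different times, with no overlap, in 2 of 29 members. The share of all genes with such orders was not computed. At single times HF was below without overlap in 14.8% of all genes at 9h and 22.2% at 21h. It was above in 15% at 9h and 19% at 15h. Insig1 had HF below at 9h and above at 15h (unadjusted p of the interaction 0.0276, limma adjusted p = 0.999). Mbtps2 had HF above at 9h and below at 21h (unadjusted p 0.386, limma adjusted p = 0.999).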

How the results depend on the processing

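For diet averaged over times, 1 member passed in the reported fit, where 262 of 13228 genes did. With no filter on low values 0 members and 211 of 18451 genes passed. Quantile normalization gave 3 members and 258 genes, and the additive model 4 members and 362 genes. Relative to the meibocyte markers 0 members and 470 genes passed. Whether Pmvk passed depended on the library left out, and without any 1 library the members' median was 0.09 to 0.20. Relative to the markers, which themselves had positive averaged diet differences, the median was -0.11 over times, -0.18 at 15h and -0.045 at 21h. Insig1 (-0.082), Insig2 (-0.12), Srebf2 (-0.21) and Scap (-0.12) then changed sign. Srebf2 also changed sign without CTL_21h replicate 1, HF_9h replicate 7 or HF_15h replicate 6 (-0.0098, -0.029 and -0.0059), and without any 1 library it ranged from -0.029 to 0.080. Without 1 library the median was -0.066 to 0.16 at 9h, 0.17 to 0.26 at 15h and 0.10 to 0.38 at 21h. It was 0.16 at 9h without CTL_21h replicate 1 and HF_9h replicate 6 together, a pair chosen after seeing the data. For 21h against 9h, 1 member passed with limma-voom, where 944 of 13215 genes did. Which members passed the time comparisons depended on the library left out. The members' median was then -0.028 to 0.11 for 21h against 9h and 0.027 to 0.13 for 15h against 9h. With the replicate block, which left 2 residual degrees of freedom, 0 members and 0 of 13228 genes passed for diet averaged. Srebf2 (-0.16) and Scap (-0.076) then changed sign, and the median was -0.17 at 9h and 0.024 at 21h. The numbers are not shown to pair libraries: libraries sharing a number had correlations of deviations from -0.50 to 0.29. With 2 libraries per group the deviations within a group mirror each other, so these correlations cannot decide on pairing. The cause of these differences was not tested. Each group has 2 libraries, which limits every comparison at 1 time.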
